A study of Oryctolagus cuniculus with 6 samples.

Results

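COL10A1, EPYC and SCRG1 are genes tied to cartilage, and they were followed here in scars of the rabbit ear. They were picked by symbol from the mRNA table that the authors deposited, where each has 1 transcript, so they are 3 of the 415 genes and 3 of the 421 transcripts in that table. Their transcripts carry the Ensembl identifiers ENSOCUT00000001188 (COL10A1), ENSOCUT00000013387 (EPYC) and ENSOCUT00000000613 (SCRG1). All scars came from female New Zealand White rabbits with full-thickness wounds, 6 per ear, and were taken for RNA sequencing at day 21. In the control arm 3 rabbits had received saline. In the ADSC-Exos arm 3 other rabbits had received exosomes (small secreted vesicles) of adipose-derived stem cells, 100 µg in 2 ml. Application covered the first 3 days in the study's design text, whereas the sample labels name a treatment of 21 days. Each library is labelled as 1 replicate of an arm. The labels and the design text say neither how many wounds went into a library nor the age of the animals or the donor species of the stem cells.

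The ear is stiffened by a sheet of cartilage that lies directly under its thin skin, and a full-thickness wound of the ear reaches down to it. Cartilage cells, the chondrocytes, lay down a matrix of collagen and proteoglycan, and some of them enlarge late in their life into hypertrophic chondrocytes with a matrix of their own. COL10A1 encodes the chain of type X collagen, a short network-forming collagen best known as the marker of hypertrophic cartilage. EPYC encodes epiphycan, a small leucine-rich proteoglycan first described in the cartilage of growing bone ends. SCRG1 encodes a small secreted protein that is made by chondrocytes and mesenchymal stem cells in humans and mice and that stimulates chondrogenesis, as its entry in the deposited table also names it.

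The table is a selection: every transcript in it has an absolute log2 difference over 1 and a p-value under 0.05 in the authors' own comparison. The members were therefore bound to differ between the arms, and their differences are given as measurements of selected transcripts. Values are log2(normalized reads + 1), in which reads were divided by 1 size factor per library, between 0.890 and 1.18. Summed over the listed mRNAs, a library held 86844 to 224554 reads, and its total depth is unknown. A level is comparable between rabbits for 1 gene. It is not comparable between genes, because no transcript lengths come with the table. In a piece of scar, a different number of cells that make a transcript and a different level per cell cannot be told apart. Which cells made the members' transcripts was not identified.

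COL10A1 was lower in the ADSC-Exos scars. The control rabbits 1, 2 and 3 had 9839, 21189 and 19883 COL10A1 reads, and the ADSC-Exos rabbits 1, 2 and 3 had 5840, 2686 and 4949. As log2 levels, these were 13.02, 14.37 and 14.45 with saline, against 12.50, 11.41 and 12.30 with exosomes. Every control rabbit stood above every treated one, and control rabbit 1 came nearest to the treated arm, with a gap of 0.52 to ADSC-Exos rabbit 1. The mean log2 level was 13.95 ± 0.80 in control and 12.07 ± 0.58 in ADSC-Exos scars (SD, n = 3 each).

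The COL10A1 difference was -1.88 on the log2 scale (SE 0.61, 95% interval -3.29 to -0.46), which is 3.67-fold lower. Its mean normalized reads were 17279 ± 7786 with saline and 4523 ± 1608 with exosomes (SD, n = 3 each). In the authors' deposited table the p-value was 5.76e-06 and the FDR (p adjusted for the number of transcripts tested) 0.0017. That p-value ranked 17 among the 421 listed transcripts, while 81 of the 179 transcripts listed lower had a larger drop. Calls at an FDR under 0.05 made up 11.6% of the listed transcripts, and calls to the lower side 6.41%.

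A separate test by limma (linear models with a moderated spread) gave COL10A1 an unadjusted p of 0.0156. Its limma p, adjusted over the 17743 transcripts that the authors are inferred to have tested, was 1. Adjusted over the 421 listed ones it was 0.0926, so COL10A1 was not called by limma. Of the listed transcripts, 0.713% passed limma's threshold when adjusted over the list. An exact two-sided permutation test of the 6 values gave p = 0.1, the smallest value that 3 rabbits against 3 allow. Separation of the arms is also frequent in this selected table, at 53.7% of the listed transcripts, 28.3% to the lower and 25.4% to the higher side. Counting error was small beside the spread between rabbits, since a COL10A1 read total of this size carries a log2 counting SD near 0.012 in control and 0.022 in ADSC-Exos libraries.

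**Figure D1:**
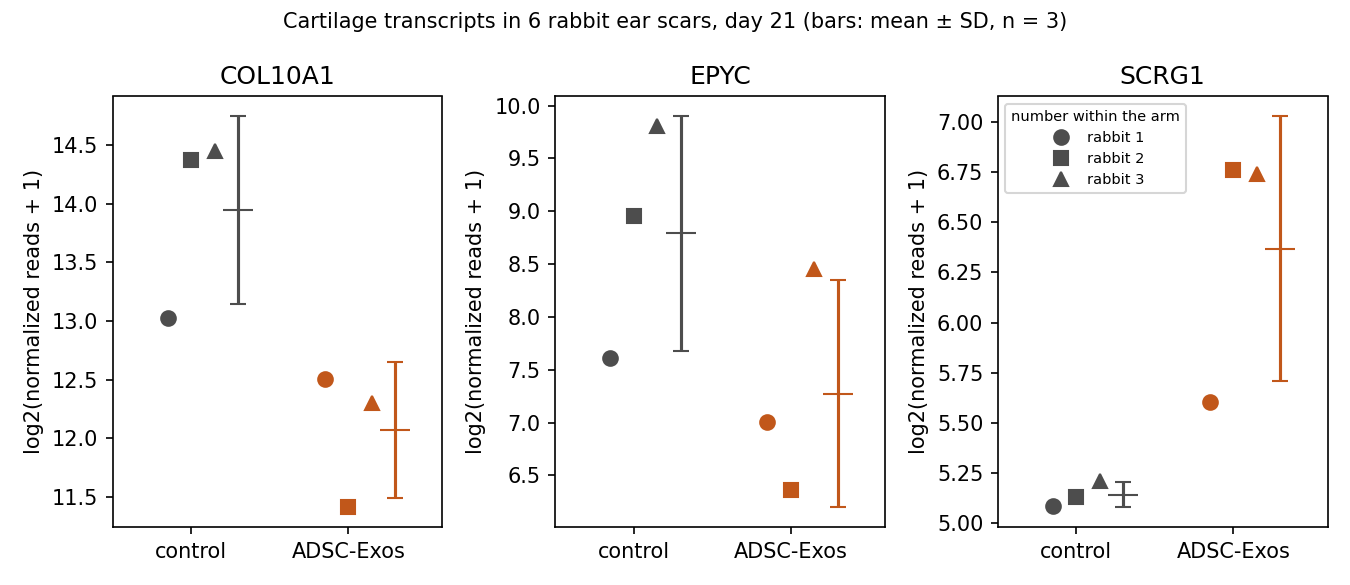
Log2(normalized reads + 1) of COL10A1, EPYC and SCRG1 (y axes, each with its own range) in the control and ADSC-Exos rabbits; symbols are single rabbits and bars the mean ± SD (n = 3). The arms separate for COL10A1 (12.50 against 13.02 at the nearest) and SCRG1 (5.21 against 5.61), and overlap for EPYC (7.61 in control rabbit 1 and 8.45 in ADSC-Exos rabbit 3).

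EPYC had a lower mean in the ADSC-Exos scars, but the arms overlapped. The proteoglycan's reads were 230, 495 and 799 in control rabbits 1, 2 and 3 and 128, 80 and 343 in ADSC-Exos rabbits 1, 2 and 3. The corresponding log2 levels were 7.61, 8.95 and 9.81 with saline, against 7.00, 6.36 and 8.45 with exosomes. Control rabbit 1 fell below ADSC-Exos rabbit 3, so the low end of the controls and the high end of the treated arm crossed. The mean EPYC level was 8.79 ± 1.11 in control and 7.27 ± 1.07 in ADSC-Exos scars (SD, n = 3 each). Normalized EPYC reads spread 4.62-fold within the control arm and 4.32-fold within the treated arm, more than the 2.87-fold distance between the arm means on the log2 scale.

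The EPYC difference was -1.52 (SE 0.77, 95% interval -3.30 to 0.26), and no test called it. The authors' deposited table gave EPYC a p-value of 0.0208 and an FDR of 0.449. Limma gave an unadjusted p of 0.0845, and an adjusted p of 1 over all transcripts tested and 0.121 over the listed ones. The exact two-sided permutation p of its 6 values was 0.2. Without control rabbit 3, the animal with most EPYC reads, the difference was -1.01.

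SCRG1 went the other way, with a higher mean in the ADSC-Exos scars. The secreted factor was counted in far fewer reads, at 39, 34 and 32 in control rabbits 1, 2 and 3 and 48, 106 and 104 in ADSC-Exos rabbits 1, 2 and 3. The SCRG1 log2 levels were 5.09, 5.13 and 5.21 with saline, against 5.61, 6.76 and 6.74 with exosomes. The arms did not overlap, and ADSC-Exos rabbits 2 and 3 lay well above ADSC-Exos rabbit 1, which was 0.40 above the highest control. The mean SCRG1 level was 5.14 ± 0.06 in control and 6.37 ± 0.66 in ADSC-Exos scars (SD, n = 3 each).

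The SCRG1 difference was 1.23 (SE 0.50, 95% interval 0.06 to 2.39), which is 2.34-fold higher. Its normalized reads lay between 33.0 and 36.0 with saline and between 47.7 and 107.3 with exosomes, and their means stood in a ratio of 2.54. The authors' deposited table gave a p-value of 0.00094 and an FDR of 0.0895, so SCRG1 was not called there. Calls to the higher side made up 5.23% of the listed transcripts. Limma gave an unadjusted p of 0.0409, and an adjusted p of 1 over all transcripts tested and 0.106 over the listed ones. An unadjusted limma p under 0.05 was found for 45.8% of the listed transcripts. The exact two-sided permutation test gave p = 0.1, again the smallest that this design allows.

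At SCRG1's depth counting error matters. The exact Poisson 95% interval of its normalized reads, which covers counting error only, ran from 35.2 to 63.2 for the 47.7 normalized reads of ADSC-Exos rabbit 1. The intervals of the control rabbits ended at 45.0, 47.5 and 50.8, so that treated animal could not be told apart from the controls at this depth. The intervals of ADSC-Exos rabbits 2 and 3 began at 87.8 and 86.6, above all of those of the controls. In the control arm the SD between rabbits, 0.06, was smaller than the log2 counting SD of 0.24, whereas in the ADSC-Exos arm the SD of 0.66 was larger than the counting SD of 0.16.

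**Figure D2:**
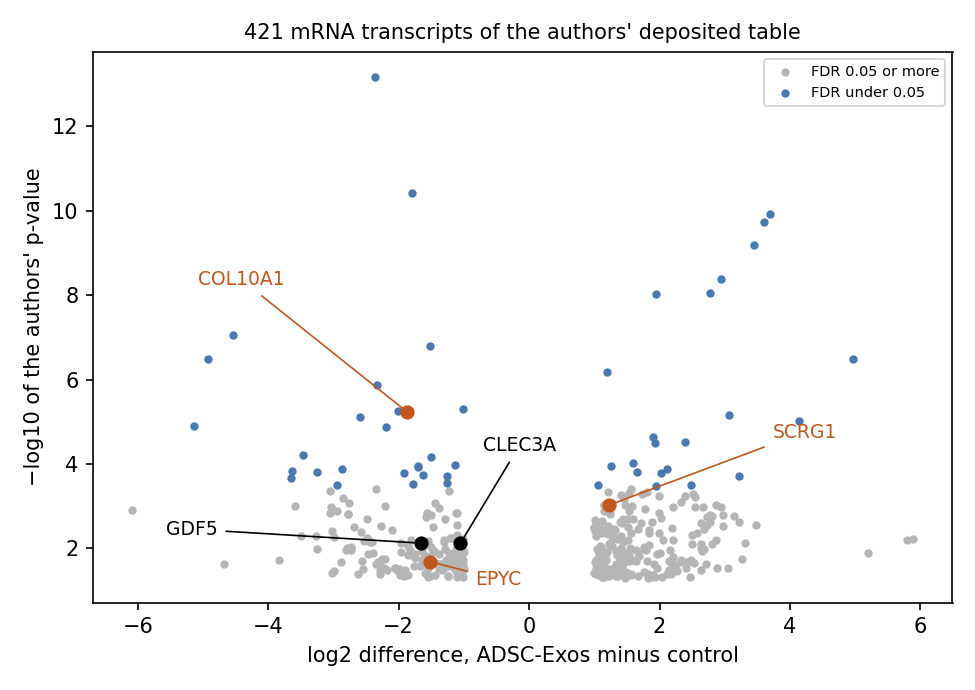
Log2 difference between ADSC-Exos and control scars (x axis) against −log10 of the p-value (y axis) for the 421 transcripts of the authors' deposited table, with those at an FDR under 0.05 in blue. Of the labelled cartilage genes, COL10A1 at -1.88 lies among the calls, while EPYC at -1.52, SCRG1 at 1.23, CLEC3A at -1.05 and GDF5 at -1.66 do not.

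The members were next followed from rabbit to rabbit within an arm. COL10A1 and EPYC were both lowest in control rabbit 1 among the controls and both lowest in ADSC-Exos rabbit 2 among the treated animals. Once the mean of each arm was subtracted, the log2 values of COL10A1 and EPYC had a Pearson correlation of 0.80 over the 6 rabbits; the values of both genes in a rabbit share its library and size factor. For SCRG1 the same correlation was -0.32 with COL10A1 and 0.21 with EPYC. These values describe 6 animals and are not tests. Among the 179 listed transcripts with a lower mean in the ADSC-Exos arm, control rabbit 1 was the lowest control for 49.2% and ADSC-Exos rabbit 2 the lowest treated animal for 32.4%. Control rabbit 1 had the largest size factor, 1.18, and with no size factor the COL10A1 and EPYC differences were -1.91 and -1.56.

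The distance between EPYC and COL10A1 inside each rabbit was also compared between the arms. The log2 level of EPYC minus that of COL10A1 was -5.41, -5.42 and -4.64 in control rabbits 1, 2 and 3. In ADSC-Exos rabbits 1, 2 and 3 it was -5.50, -5.05 and -3.85. The arms overlapped, with means of -5.15 ± 0.45 in control and -4.80 ± 0.86 in ADSC-Exos scars (SD, n = 3 each; exact two-sided permutation p = 0.7). Both transcripts entered the table through a drop of more than 1, so their shared direction was fixed beforehand. The p-value of their distance is therefore no evidence that they fell together. The log2 level of SCRG1 minus that of COL10A1 was between -9.24 and -7.94 in the control rabbits and between -6.90 and -4.65 in the treated ones. No test was run on that distance, since the opposite directions of both transcripts already fix it.

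**Figure D3:**
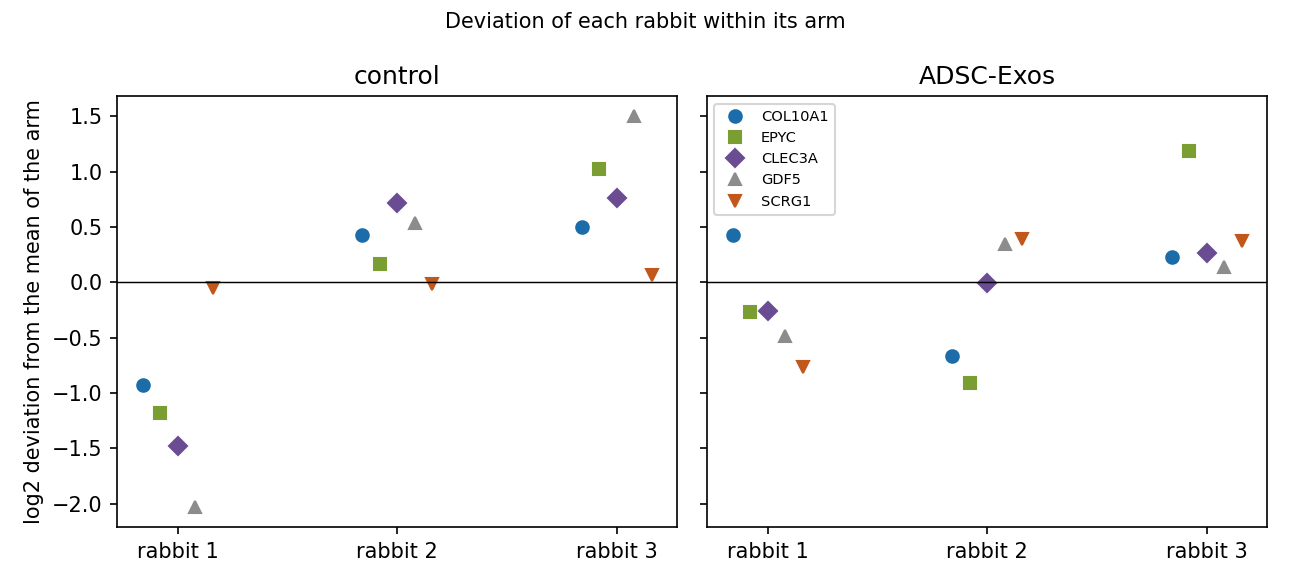
Log2 deviation of each rabbit from the mean of its arm (y axis) for 5 cartilage genes, in the control arm (left) and the ADSC-Exos arm (right); each point is 1 gene in 1 rabbit. Control rabbit 1 lies below its arm's mean for COL10A1 (-0.93), EPYC (-1.18), CLEC3A (-1.48) and GDF5 (-2.03), while SCRG1 is at -0.06.

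Genes that work beside the members were looked up in 6 lists: cartilage matrix, chondrocyte regulators, hypertrophic cartilage and mineralization, small leucine-rich proteoglycans, short-chain collagens and the elastic fibre. Of their 96 genes, 5 were found by symbol in the selected table, namely the 3 members, CLEC3A and GDF5. In the authors' deposited table COL10A1 was called lower and none of the other 4 was called, beside 11.6% called among all listed transcripts. By direction, 4 of the 5 had a lower and 1 a higher mean in the ADSC-Exos scars, beside 179 lower of all 421 listed transcripts. The median difference was -1.52 for the 5 and 1.12 for all 421. No listed transcript lies between -1 and 1, so these medians follow the majority direction and do not measure a shift. Separate arms were seen in 2 of the 5, beside 53.7% of all listed transcripts, so separation was not more frequent among these genes. These counts hold for the 96 genes of the lists alone. Other growth factor genes in the table, such as GDF6 (-2.31) and FGF18 (1.15), are in none of the 6 lists. Both had separate arms, and neither was called in the authors' deposited table. The elastic fibre list had 0 genes in the table.

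CLEC3A, a C-type lectin known from cartilage, had 861, 3336 and 3051 reads in control rabbits 1, 2 and 3. In ADSC-Exos rabbits 1, 2 and 3 it had 819, 962 and 1147 reads. As log2 levels, control rabbit 1 was at 9.51, below the treated range of 9.67 to 10.19, while control rabbits 2 and 3 were above it at 11.70 and 11.74. The arms thus overlapped, and the log2 difference of -1.05 (SE 0.70) was not called (FDR 0.290 in the authors' deposited table). GDF5, a growth factor of the BMP family that acts in joint and cartilage formation, had 9, 50 and 88 reads with saline and 7, 13 and 11 with exosomes, again in rabbits 1, 2 and 3 of each arm. Its log2 difference was -1.66 (SE 0.89), with control rabbit 1 (log2 level 3.11) inside the treated range of 2.99 to 3.82 and an FDR of 0.288 in the authors' deposited table. COL10A1 and COL22A1, a collagen of tissue junctions, were the 2 collagen chains found by symbol in the table. COL22A1 went up where COL10A1 went down, by a log2 difference of 2.48 (SE 1.10) and an FDR of 0.0456 in the authors' deposited table, with overlapping arms.

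The cartilage label could be checked only in part. None of the 11 chondrocyte markers that were set beside the members (COL2A1, ACAN, COL9A1, COL11A1, COMP, MATN1, MATN3, HAPLN1, CNMD, SNORC and SOX9) matched a symbol in the selected table, so their levels were not analysed here. The 100 listed transcripts without a symbol could not be searched for them. The name cartilage therefore rests on what COL10A1, EPYC and SCRG1 are known for. The lists for osteoblasts, fat cells, endothelium and T cells likewise had 0 genes matched by symbol.

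Listed markers of other cells differed in their summed levels in the same libraries, and their part in the COL10A1, EPYC and SCRG1 differences was not tested. Each sum follows its best-counted genes and does not measure a number of cells. The 3 listed of 13 erythroid genes (HBB2, ALAS2 and CA1) summed to between 9701 and 37337 normalized reads in the control rabbits and between 3633 and 6924 in the treated ones, lower as for COL10A1. Most of these reads were of HBB2, which had 3404 to 31043 reads per rabbit beside 5 to 107 of CA1. The 2 listed of 21 skeletal muscle genes (MYH1 and MYH7) summed to between 7.87 and 246.9 in control and between 3.98 and 8.16 in ADSC-Exos rabbits, with no MYH7 read in ADSC-Exos rabbit 1. The summed ranges of the arms overlapped for the muscle genes and not for the erythroid genes. By single gene, MYH1 overlapped between the arms and MYH7 did not. The MYH7 gap was narrow, from 2.73 in control rabbit 3 to 2.61 in ADSC-Exos rabbit 3, with 5 reads in each. The log2 differences were -2.87 for MYH1 and -3.65 for MYH7, at FDRs of 0.0242 and 0.0347 in the authors' own comparison.

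Higher at the top of the treated arm, as SCRG1 was, were the sums of 4 further lists, although not every member of them was higher. The 3 listed of 14 macrophage and osteoclast genes (ATP6V0D2, MMP12 and MSR1) summed to between 100.5 and 210.2 normalized reads in control and between 203.7 and 1767 in ADSC-Exos rabbits. The 2 listed of 10 sebaceous genes (MC5R and FAR2) ran from 814.8 to 1285 and from 887.5 to 3869, and the 2 listed of 18 genes on the keratinocyte list (S100A8 and TGM5) from 1124 to 3166 and from 1443 to 6217. Control rabbit 3 set the top of that control range, with 350 and 1023 reads of the S100A8 transcripts beside 1444 of TGM5. Which cells made the S100A8 transcripts was not tested. In these lists MC5R (log2 difference -1.70, FDR 0.0220 in the authors' deposited table) and both S100A8 transcripts (-1.15 and -1.34, FDR 0.526 and 0.549 there) had lower means with exosomes, whereas FAR2 (1.56) and TGM5 (1.21) had higher ones. CTHRC1 was the 1 listed of 15 scar fibroblast genes, at 1.12 to 12.0 normalized reads in control and 0 to 401.7 in ADSC-Exos rabbits. In each of these 4 lists the summed ranges of the arms overlapped. Taken alone, ATP6V0D2 and MC5R had separate arms, as had 53.7% of all listed transcripts. ATP6V0D2 was higher with exosomes, by a log2 difference of 3.07 and an FDR of 0.0020 in the authors' deposited table.

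Listed mRNAs with a pattern like that of a member were found by the Pearson correlation of log2 values over the 6 rabbits, as a description with no test. With arm means subtracted, those nearest to COL10A1 were ARPP21 (0.96), the transporter gene SLC16A6 (0.95) and PPEF1 (0.94). Those nearest to EPYC were the keratin gene KRT78 (0.97), CRISPLD1 (0.94) and SPATA18 (0.93), of which KRT78 had a higher mean in the ADSC-Exos arm, opposite to EPYC. For SCRG1 they were the glycosyltransferase gene GALNT15, CCDC63 and the potassium channel gene KCNJ1, at 0.999, 0.995 and 0.995.

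With plain values, in which the selected difference between the arms is included, SPATA18 (0.98), the amino acid transporter gene SLC7A10 (0.97) and the cytokine gene IL13 (0.96) were nearest to COL10A1. CRISPLD1 (0.96) and the betaine transporter gene SLC6A12 (0.94) were among the 3 nearest to EPYC. CCDC129, the granin gene CHGA and the mitochondrial assembly factor gene NDUFAF2, all at 0.99 or above, were nearest to SCRG1. How common such a pattern is differed between the members. With arm means subtracted, 94 of the 420 other transcripts correlated with SCRG1 above 0.9, beside 9 with COL10A1 and 5 with EPYC. SCRG1's pattern within the treated arm, low in rabbit 1, was shared by 83.9% of the 242 transcripts listed higher, for which that rabbit was the lowest of its arm.

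The surroundings of the members were read by name from the RefSeq annotation of another rabbit assembly, mOryCun1.1, since neither the labels nor the tables name the build of the deposited coordinates. There COL10A1 overlaps NT5DC1, EPYC overlaps an uncharacterized lncRNA gene, and SCRG1 overlaps SAP30 and another lncRNA gene. Whether the authors' counting used strand is not given, so reads of an overlapping neighbour cannot be told apart from those of the member. SCRG1 is classed as a protein-coding RNA in the deposited table and as a lncRNA in RefSeq. None of the 3 members is host to a listed circRNA, and none of the 133 listed lncRNAs is annotated within 3 kb of their transcripts.

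Within 1 Mb of a member, 0 neighbouring genes could be matched by symbol to the mRNA table, and 1 was host to a listed circRNA. The 100 listed mRNA transcripts without a symbol could not be matched in this way. This was DCN, the gene of decorin, which stands with EPYC, KERA and LUM in a row of small leucine-rich proteoglycan genes. The exonic DCN circRNA, on chromosome 4 from 70362759 to 70372943 in the coordinates of the deposited table, had 2, 2 and 1 reads with saline and 0, 1 and 0 with exosomes. With 6 reads in all and an FDR of 0.821 in the authors' deposited table, no difference was detectable at this depth.

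The member differences were recomputed with each rabbit left out. The COL10A1 difference stayed between -2.34 (without control rabbit 1) and -1.54 (without ADSC-Exos rabbit 2). EPYC ran from -2.11, without ADSC-Exos rabbit 3 or control rabbit 1, to -1.01, without control rabbit 3. SCRG1 ran from 1.03 (without ADSC-Exos rabbit 2) to 1.61 (without ADSC-Exos rabbit 1). No member changed sign when 1 rabbit was left out. For COL10A1 and SCRG1 a change of sign was not possible, because their arms do not overlap. None of the members passed the limma threshold adjusted over all transcripts tested.

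**Figure D4:**
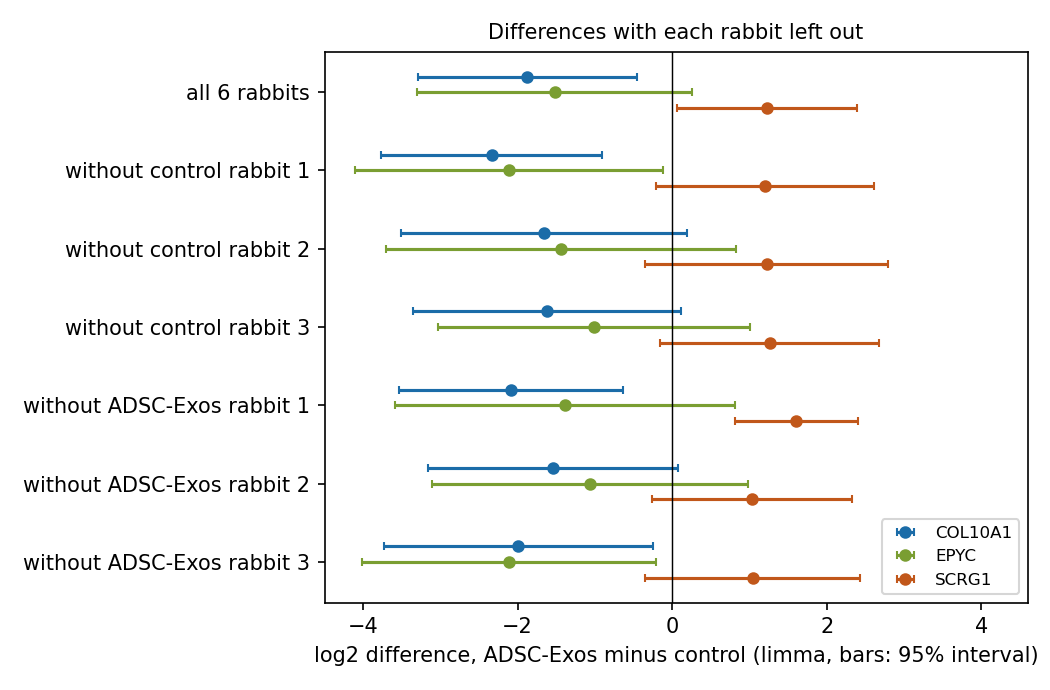
Log2 difference, ADSC-Exos minus control (x axis), of the 3 members with all 6 rabbits and with each rabbit left out (rows); points are limma estimates and bars their 95% intervals. COL10A1 stays between -2.34 and -1.54, EPYC between -2.11 and -1.01, and SCRG1 between 1.03 and 1.61.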

How the data were processed

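The authors deposited log2 values for selected mRNAs, lncRNAs and circRNAs, with a p-value and FDR of their own comparison. The submitters' processing notes name DESeq2 1.30.1, HTSeq 2.0.3, STAR 2.7.6a, Trimmomatic 0.40 and FastQC 1.0.0, without roles. The labels' protocol speaks of adaptors for small RNAs, and strand use is not given. Taken off the log scale and less 1, the deposited values are whole multiples of 1 step per library, within 0.01 for 100% of values, so reads and size factors could be recovered. No count test was run on them. All columns were mapped to samples.

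The 421 mRNAs were compared with limma 3.58.1 (trend and robust) in R 4.3.3, with no covariate and Benjamini-Hochberg adjustment at 0.05. The adjustment ran over 17743 transcripts, with unlisted transcripts, which were not fitted, at a p of 1. That number is inferred. For it, the largest share (53.4%) of the ratios of the authors' p to FDR, over mRNAs and lncRNAs, gave a whole rank within 0.0001. The script was tested on simulated data with the same spread for every transcript and no selection. That test does not show how limma's p-values behave on the selected table. Single values were compared by exact permutation. Limma's spread comes from selected transcripts, and its p-values are not independent of the authors' selection. Tables and figures used Python 3.11.15.

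Named genes are the members, the listed genes of the cartilage lists, the 3 nearest symbols by each correlation and neighbours within 1 Mb. As the mRNA table holds no coordinates, neighbours were taken by name from RefSeq, where all 3 symbols matched. Members and lists were chosen with earlier results of these data known. COL22A1 and the within-rabbit distances were added after values were seen. Some results by these rules are not reported here. Same-numbered rabbits are not paired in the labels.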

Additional observations from a re-analysis of the deposited data

How the results depend on the processing

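Limma was fitted to the 421 listed mRNAs, and its count of calls was 0 when adjusted over 17743 transcripts. Of the 421, 193 had an unadjusted p under 0.05, and 3 passed when adjusted over the listed transcripts alone. Leaving out 1 rabbit gave 0 to 2 calls (2 when it was ADSC-Exos rabbit 1), and the count was 0 with no size factor, quantile normalization, a pseudocount of 0.1 or 10, filters at a mean of 1 or 10 normalized reads, or no trend and robust options. The 193 became 91 to 311 without 1 rabbit (91 without ADSC-Exos rabbit 3, 94 without control rabbit 2, 101 without ADSC-Exos rabbit 2, 116 without control rabbit 3 and 311 without ADSC-Exos rabbit 1) and 115 of 326 transcripts with the filter at 10. The 3 became 33 with quantile normalization, 22 without the trend and robust options, 1 with the filter at 10, 0 with either pseudocount or the replicate block, and 0 to 287 without 1 rabbit (18 without control rabbit 1, 287 without ADSC-Exos rabbit 1). The filter at 1 removed no transcript and so tested nothing. At an unadjusted p under 0.05, COL10A1 (-1.88) and SCRG1 (1.23) would pass and EPYC would not. SCRG1 lost that side with the filter at 10, at an unadjusted limma p of 0.0597, without the trend and robust options, at 0.0539, and with the replicate block, at 0.0601. Under these settings with all 6 rabbits COL10A1 stayed between -2.00 and -1.87, EPYC between -1.67 and -1.46 and SCRG1 between 1.06 and 1.25. Quantile normalization moved the median of all listed transcripts by -0.27. Without 1 rabbit the ranges were -2.34 to -1.54, -2.11 to -1.01 and 1.03 to 1.61, with an unadjusted p under 0.05 in 3, 2 and 1 of 6 fits. Fitting the replicate number as a block gave 0 calls and 169 at an unadjusted p under 0.05, with COL10A1 at -1.88, EPYC at -1.52 and SCRG1 at 1.23. Deviations of same-numbered rabbits correlated between -0.025 and 0.014 over the listed transcripts. Such values cannot settle whether these rabbits were paired, and the labels give no pairing. The cause of the changes between settings was not tested.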

Other observations

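Control rabbit 1 was low for the cartilage genes with a lower mean in ADSC-Exos scars. Its log2 level was the lowest of the controls for COL10A1, EPYC, CLEC3A and GDF5, by as much as 2.03 below the control mean for GDF5. That rabbit was also the lowest control for 49.2% of the 179 transcripts listed lower and for 42.5% of all 421, so a low level there is not particular to cartilage genes. Without it the CLEC3A difference was -1.79 in place of -1.05 and the GDF5 difference -2.68 in place of -1.66, and neither passed limma's adjusted threshold (adjusted p = 1 for both over all transcripts tested). Other rabbits moved these differences towards 0: without control rabbit 3 they were -0.68 for CLEC3A and -0.91 for GDF5, and without control rabbit 2 the CLEC3A difference was -0.70. This was looked at after the values were seen, and the reason for the low levels in that rabbit was not tested.

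Without ADSC-Exos rabbit 1, SCRG1 differed by 1.61 (SE 0.32), with a limma adjusted p of 0.459 over all transcripts tested (1 in the other refits) and 0.0109 over the listed ones (0.0719 to 0.227 in the other refits). COL10A1 then differed by -2.09 (SE 0.58), with an adjusted p of 1 over all and 0.0257 over the listed ones (0.0715 to 0.211 in the other refits), in a setting where 287 of 420 listed transcripts passed the latter. That rabbit had 48 SCRG1 reads and 5840 COL10A1 reads, the values nearest to the controls in its arm for both genes. Leaving that rabbit out therefore had to widen both differences. The listed transcripts were selected by the authors' own comparison of the same libraries, so a p adjusted over them is not an error rate. The values of 0.0109 and 0.0257 thus do not decide whether SCRG1 or COL10A1 differed between the arms.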
